A study of Mus musculus with 8 samples.

Results

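The genes described here are 10 regulators of the G1/S transition, the step at which a cell leaves the first gap phase and begins to copy its DNA. They are the D-type cyclins Ccnd1, Ccnd2 and Ccnd3, the E-type cyclins Ccne1 and Ccne2, the A-type cyclin Ccna2, the transcription factors E2f1 and E2f2, and the cyclin-dependent kinase (CDK) inhibitors Cdkn1b (p27) and Cdkn2c (p18). They were found by name: every non-control probe whose gene name in the files equalled one of these symbols was taken, which gave 13 of 55664 probes with a value. The 10 genes stand among 28940 that could be tested. Ccnd3, Ccne1 and Cdkn1b were read by 2 probes each, and the brightest stood for the gene unless stated.

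The study asked what the conditional loss of Geminin (Gmnn), an inhibitor of the origin licensing factor Cdt1, does to transcripts of the spinal neural tube and of the paraxial tissue beside it. Mutant embryos carried the genotype fl/fl; cre/o and controls were wild type, all on a C57BL/6 background and at E10.5. The 4 groups were mutant neural tube, wild-type neural tube, mutant paraxial tissue and wild-type paraxial tissue. Each held 2 arrays, from 2 embryos per genotype that each gave both tissues, cut out by laser and hybridised to 1-colour Agilent arrays. The labels used here name neither the promoter that drives cre nor the deleted part of Gmnn, so the fraction of cells that lost the gene is not known from them.

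In cycling cells, D-type cyclins bind CDK4 or CDK6 and start to phosphorylate the retinoblastoma protein, which releases E2F factors. E2F factors then raise transcription of the E- and A-type cyclins and of genes for DNA synthesis, and cyclin E with CDK2 completes the phosphorylation. Inhibitors of the INK4 family such as p18 block CDK4 and CDK6, and inhibitors of the Cip/Kip family such as p27 bind cyclin-CDK2 complexes. In the embryonic spinal cord, dividing progenitors line the lumen, and daughter cells raise p27 as they leave the cycle and become neurons.

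The sequence just before the annotated start is shown for E2f2, Ccne1 and Cdkn1b, which passed a test between the tissues by some probe, and for Cdkn2c, for which only bounds are given below; all 4 have a window outside the gene's own span. RefSeq windows of 250 bases on GRCm38.p6, another build than that of the probe positions, were matched for 6 of the 10 members, in 9 windows. CCAAT, the sequence bound by the factor NF-Y, and the GC box GGGCGG, bound by Sp1-family factors, are in capitals on either strand (CCGCCC is the GC box read from the other strand), and each window is written 5′ to 3′ on the gene's strand. The windows lie at chr4:136172024-136172273 (E2f2, plus strand), chr4:109666757-109667006 (Cdkn2c, minus strand), chr7:38107491-38107740 (Ccne1, minus strand) and chr6:134920151-134920400 (Cdkn1b, plus strand).
E2f2: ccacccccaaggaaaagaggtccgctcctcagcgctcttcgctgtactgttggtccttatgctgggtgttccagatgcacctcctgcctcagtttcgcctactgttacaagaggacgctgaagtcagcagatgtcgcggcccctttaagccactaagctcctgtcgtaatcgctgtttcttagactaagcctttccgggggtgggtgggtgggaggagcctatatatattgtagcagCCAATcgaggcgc
Cdkn2c: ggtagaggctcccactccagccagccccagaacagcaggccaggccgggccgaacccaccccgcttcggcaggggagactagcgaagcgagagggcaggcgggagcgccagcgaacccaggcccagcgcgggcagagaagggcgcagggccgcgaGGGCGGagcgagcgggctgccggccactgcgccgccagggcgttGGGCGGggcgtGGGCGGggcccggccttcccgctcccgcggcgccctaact
Ccne1: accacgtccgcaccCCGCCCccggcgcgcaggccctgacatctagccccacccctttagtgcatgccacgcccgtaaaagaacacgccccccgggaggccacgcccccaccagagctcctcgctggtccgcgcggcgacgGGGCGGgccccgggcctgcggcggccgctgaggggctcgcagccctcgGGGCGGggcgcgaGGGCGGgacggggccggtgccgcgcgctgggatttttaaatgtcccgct
Cdkn1b: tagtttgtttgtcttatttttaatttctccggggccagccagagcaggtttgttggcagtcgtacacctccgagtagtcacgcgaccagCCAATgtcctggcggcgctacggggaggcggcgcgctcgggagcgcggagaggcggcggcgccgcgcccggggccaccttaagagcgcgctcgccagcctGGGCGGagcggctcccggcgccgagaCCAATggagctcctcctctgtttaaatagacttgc

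The 4 windows differ in what they hold. E2f2 had a CCAAT 13 bases before the start and no GC box, whereas its second window, inside the gene's span, held 3 CCAAT and 1 GC box. Cdkn2c and Ccne1 had no CCAAT but 3 and 4 GC boxes, and Cdkn1b had 2 CCAAT and 1 GC box. Over all their windows, 3 of 6 members held CCAAT (37.5% of 27025 genes did) and 6 of 6 held a GC box (35.4% of genes did). None of the 6 held any of the E2F-type octamers TTTCCCGC, TTTCGCGC, TTTGCCGC or TTTGGCGC on either strand, which 2.16% of genes held. At that share, a lack of matches in 6 genes says little. Of the lists described below, 33.3% of 24 other G1/S network genes, 20% of 15 S-phase genes and 9.09% of 11 mitosis genes held one. In the same order of lists, 70.8%, 53.3% and 72.7% held a GC box, and 37.5%, 60% and 90.9% held CCAAT. GC boxes were thus common in these lists too. The octamer search was made first, and the 2 other motifs were added after it gave no match in the members. The only window matched for E2f1 lies inside its gene, so it is not shown.

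Before the tissues were compared, their labels were checked. All 10 of the 10 neural progenitor markers (such as Sox2, Pax6 and Nes) were higher in neural tube than in paraxial tissue over both genotypes (limma, adjusted p under 0.05), with a median log2 difference of 2.34. All 11 paraxial mesoderm markers measured were lower in neural tube, and 10 of them passed that test (median -2.81). All 10 neuronal markers were higher, and 4 of them passed (median 1.27). The mean of the paraxial mesoderm markers, relative to their own average over the 8 arrays, was -1.79 and -1.04 in mutant neural tube, against -2.61 and -0.49 in wild-type neural tube, and 1.12 and 1.20 in mutant paraxial tissue, against 1.55 and 2.07 in wild-type paraxial tissue. Of the neural tube arrays, that of wild-type embryo 2 thus lay nearest to the paraxial arrays. Tissue calls of members and network genes that were lost without that array are given as such below. Uncalled differences are given without it only where stated. The part of paraxial RNA in these results was not tested. Gmnn itself read 12.10 and 11.80 in mutant neural tube, against 12.35 and 12.24 in wild-type neural tube, and 11.42 and 11.39 in mutant paraxial tissue, against 12.20 and 11.88 in wild-type paraxial tissue (scaled log2 signal, as below). Its mutant minus wild-type differences, -0.35 ± 0.25 and -0.63 ± 0.25 (log2 ± SE), did not pass the test (limma, adjusted p = 0.921 and 0.996). Whether its probe (chr13:24843715-24843774 on mm9) lies in the deleted part is not known from the labels. Arrays had 71.5% to 77.9% of their probes well above background. Mutant embryo 2 stood apart from the other 3 embryos in Xist, the RNA of the inactive X chromosome, which read 7.25 and 7.0 in its neural tube and paraxial tissue, against 13.95 to 14.77 on the other 6 arrays. None of the 10 members is X-linked, and each tissue difference of a member that passed below, Cdkn2c aside, is also given without that embryo. For other network genes that passed, only the mean over both genotypes is given without that embryo. Without it 1 mutant embryo is left, and all of these differences then lost their calls. Over both genotypes, some paraxial mesoderm markers lost their calls as well and others kept them (median then -2.79). The differences of these markers were larger than those of most members. Why the calls of members and network genes were lost was not tested.

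All levels are log2 processed signals, scaled so that the 75th percentile of every array is equal. Levels of one probe can be compared between arrays, but not with those of another probe. Each difference is tested with limma on 2 embryos per genotype with the embryo as a block, and p-values are adjusted (Benjamini-Hochberg) over 28940 genes. In these bulk tissues, fewer cells of a type and less RNA per cell cannot be told apart.

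Between neural tube and paraxial tissue, the E2F factors E2f1 and E2f2 were higher in neural tube. They were the members that passed the test over both genotypes among the 8 that were well above background on every array, where 11.9% of all genes passed and 5.94% were higher in neural tube. The median log2 difference of these 8 was 0.28, against -0.02 for all genes. In wild type none of the 8 passed, where 2.46% of all genes passed and 0.774% were higher. The cyclins did not pass by their brightest probe. Ccne2 and Cdkn2c entered the test only through wild-type neural tube, the group where both of their arrays were well above background, so a difference from the dim groups was built in; they are left out of these counts and described by bounds alone.

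E2f2, one of the E2F factors that activate S-phase genes, had the clearest tissue difference among members measured on every array. It read 13.92 and 13.80 in mutant neural tube, against 13.64 and 13.38 in wild-type neural tube, and 12.92 and 12.99 in mutant paraxial tissue, against 13.32 and 13.32 in wild-type paraxial tissue. All 4 neural tube arrays lay above all 4 paraxial arrays, with the 2 mutant groups at the ends of the order and the wild-type groups between them. In mutants E2f2 was higher in neural tube than in paraxial tissue by 0.91 ± 0.15 (log2 ± SE, 1.88-fold, adjusted p = 0.0209). In wild type the difference was 0.19 ± 0.15 (adjusted p = 0.561), and over both genotypes it was 0.55 ± 0.10 (1.46-fold, adjusted p = 0.0182). E2f2 was the only member of the 8 to pass in mutants, where 5.84% of all genes passed and 2.68% were higher. Of the 23 alternatives listed with the processing below, E2f2 passed under 11 in mutants and under 13 over both genotypes. Its call in mutants was lost with no filter and with the block by slide row, and both calls with the embryo as a fixed block. Without mutant embryo 2, where the mutant comparison rests on 1 embryo, its differences were 1.00 in mutants (adjusted p = 0.233) and 0.59 over both genotypes (adjusted p = 0.140). Without the neural tube array of wild-type embryo 2 the mean was 0.61 and passed (adjusted p = 0.0203). Both calls were also lost without any 1 of the 4 mutant arrays (0.83 to 0.98 in mutants, adjusted p = 0.159 to 0.190), without the embryo block (adjusted p = 0.191 and 0.136) and without either wild-type embryo (adjusted p = 0.0567 and 0.0678 in mutants).

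E2f1, the founding member of the family and a further activator of S-phase genes, had levels of 14.79 and 14.71 in mutant neural tube, against 14.52 and 15.04 in wild-type neural tube, and 14.38 and 14.04 in mutant paraxial tissue, against 14.19 and 14.13 in wild-type paraxial tissue. Again all neural tube arrays lay above all paraxial arrays, but here the genotypes overlapped within each tissue. The difference was 0.54 ± 0.19 in mutants (adjusted p = 0.168) and 0.62 ± 0.19 in wild type (adjusted p = 0.151). In wild type it fell to 0.33 without the neural tube array of wild-type embryo 2. Only the mean over both genotypes passed, at 0.58 ± 0.13 (1.49-fold, adjusted p = 0.0355). It passed under 9 of the 23 alternatives listed with the processing below. Without mutant embryo 2 that mean was 0.51 (adjusted p = 0.265), and without the neural tube array of wild-type embryo 2 it was 0.44 (adjusted p = 0.0593). The call held when the first wild-type array of either tissue was left out, and was lost without any 1 of the other 6 arrays (0.44 to 0.65, adjusted p = 0.0593 to 0.193) and without the embryo block (adjusted p = 0.195).

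Cdkn2c, the INK4 inhibitor p18, was a dim probe that was well above background only in wild-type neural tube, on both arrays. There it read 7.57 and 7.90, against 5.35 and 5.92 in mutant neural tube, 4.80 and 4.55 in mutant paraxial tissue and 5.94 and 5.28 in wild-type paraxial tissue, values that are only bounds in those 3 groups. In wild type it was at least 2.08-fold higher in neural tube than in paraxial tissue (limma, adjusted p = 0.0182). Since the gene entered the test only through that neural tube group, its adjusted p is no independent support. No fold is given in mutants, where neither tissue was well above background. The wild-type difference did not pass with normexp background correction (adjusted p = 0.0934), without the neural tube (adjusted p = 0.104) or the paraxial array (adjusted p = 0.0977) of wild-type embryo 2, or without the embryo block (adjusted p = 0.157).

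**Figure D1:**
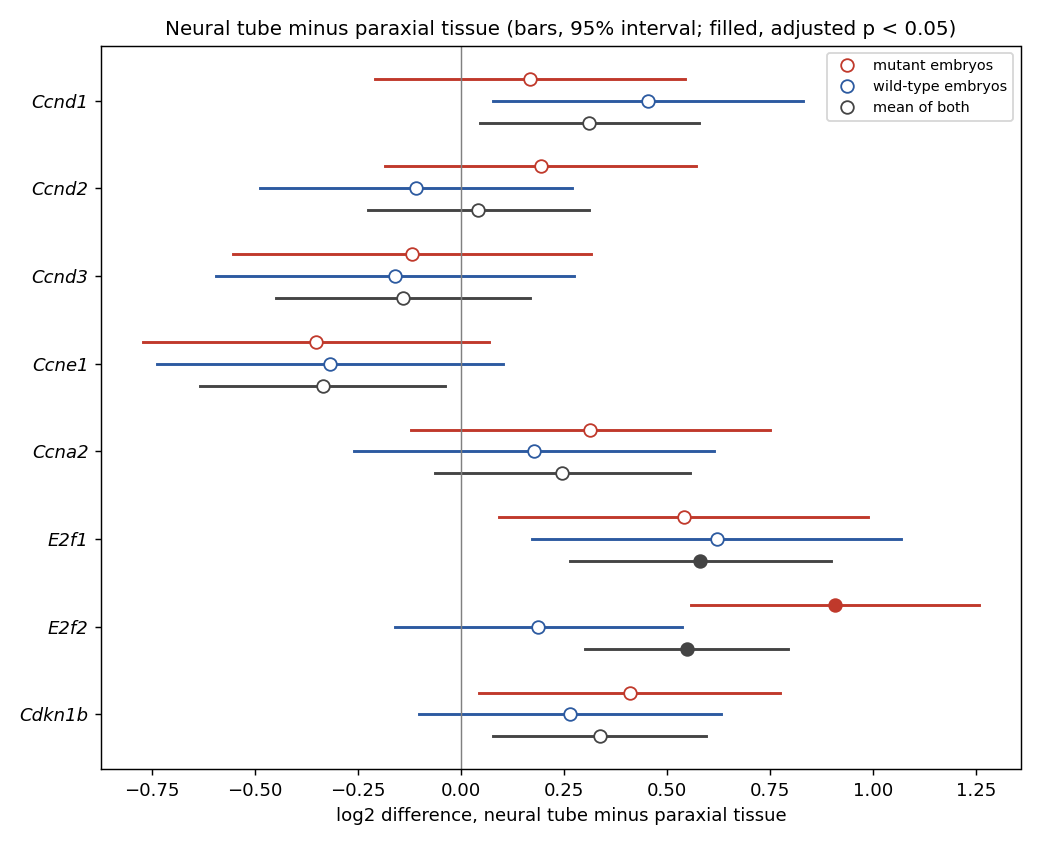
Log2 difference, neural tube minus paraxial tissue, of the 8 genes well above background on every array, in mutant embryos, in wild-type embryos and as the mean of both. Circles are limma estimates and bars their 95% intervals, and filled circles have an adjusted p under 0.05. E2f2 is filled in mutants (0.91) and for the mean (0.55), and E2f1 for the mean (0.58).

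The D-type cyclins, which respond to growth signals and open the G1/S transition, did not pass in any tissue comparison. Ccnd1 read 15.12 and 14.83 in mutant neural tube, against 14.96 and 14.93 in wild-type neural tube, and 15.03 and 14.59 in mutant paraxial tissue, against 14.61 and 14.38 in wild-type paraxial tissue. In wild type both of its neural tube arrays lay above both paraxial arrays (0.45 ± 0.16, adjusted p = 0.202), whereas in mutants the tissues overlapped (0.17 ± 0.16, adjusted p = 0.646). Ccnd2 had 17.84 and 17.47 in mutant neural tube, against 17.32 and 17.02 in wild-type neural tube, and 17.60 and 17.33 in mutant paraxial tissue, against 17.28 and 17.28 in wild-type paraxial tissue. Its tissues overlapped in both genotypes, and the mean difference of 0.04 had a 95% interval of -0.23 to 0.31. In wild type its difference went from -0.11 to 0.04 without the neural tube array of wild-type embryo 2. Ccnd3 lay at 14.76 and 14.54 in mutant neural tube, against 14.29 and 14.73 in wild-type neural tube, and at 15.02 and 14.52 in mutant paraxial tissue, against 14.42 and 14.93 in wild-type paraxial tissue. Its 4 groups overlapped throughout, and the mean tissue difference was -0.14 ± 0.13 (adjusted p = 0.548).

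The E- and A-type cyclins act after the D-type cyclins, at S-phase entry and during DNA synthesis. Ccne1 read 13.67 and 13.21 in mutant neural tube, against 12.82 and 13.33 in wild-type neural tube, and 13.94 and 13.64 in mutant paraxial tissue, against 13.19 and 13.60 in wild-type paraxial tissue. The neural tube minus paraxial difference of this probe was -0.34 ± 0.13 over both genotypes (adjusted p = 0.144), and the tissues overlapped. Ccna2 read 11.96 and 11.54 in mutant neural tube, against 11.48 and 11.99 in wild-type neural tube, and 11.47 and 11.40 in mutant paraxial tissue, against 11.51 and 11.60 in wild-type paraxial tissue. Its mean tissue difference was 0.25 ± 0.13 (adjusted p = 0.291). Without the neural tube array of wild-type embryo 2 that mean was 0.13, and its wild-type difference went from 0.18 to -0.04. Ccne2 was another dim probe, well above background on both wild-type neural tube arrays (7.32 and 7.48), on 1 of the 2 mutant neural tube arrays (7.60 and 4.55) and on no array of mutant (5.82 and 6.46) or wild-type (6.36 and 6.54) paraxial tissue. In wild type it was at least 1.64-fold higher in neural tube, which did not pass (limma, adjusted p = 0.564).

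**Figure D2:**
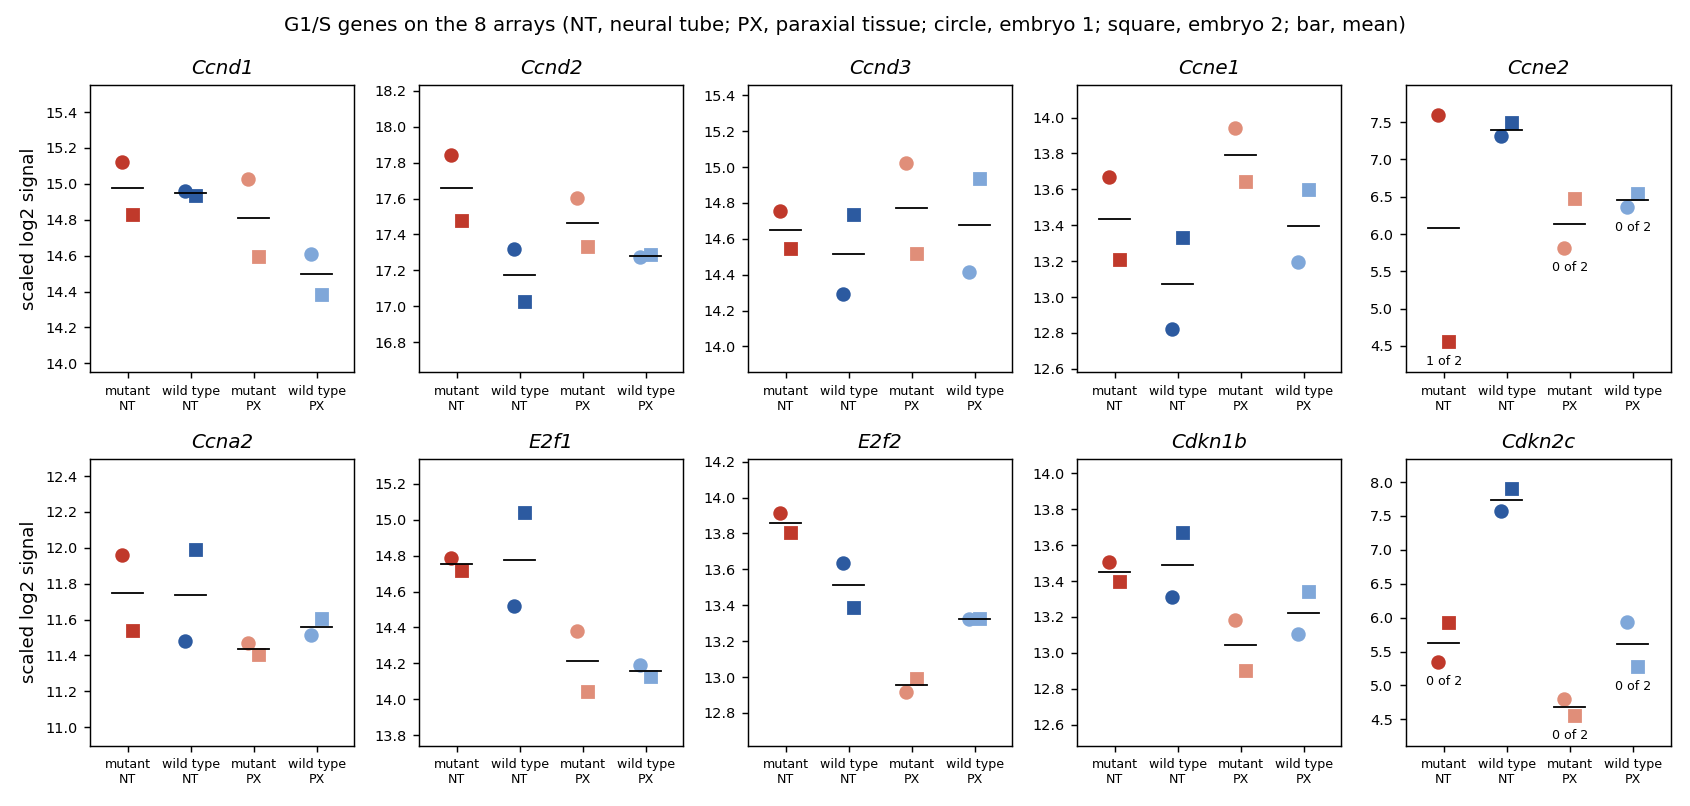
Scaled log2 signal of the 10 genes on each of the 8 arrays (circle, embryo 1; square, embryo 2; bar, group mean), with a separate axis for each gene. Where fewer than 2 arrays of a group were well above background, their number is written below the points. All 4 neural tube arrays lie above all 4 paraxial arrays for E2f1 and E2f2 only.

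For the 3 genes read by 2 probes, the choice of probe mattered, and each of the 42754 kept probes was therefore also fitted on its own, an alternative added after the data had been seen. The second probe of Ccne1 read 11.42 and 10.92 in mutant neural tube, against 10.48 and 10.20 in wild-type neural tube, and 11.56 and 11.54 in mutant paraxial tissue, against 11.28 and 11.50 in wild-type paraxial tissue. On 3 of the 4 neural tube arrays it lay below every paraxial array, and over both genotypes it passed (-0.72 ± 0.14, adjusted p = 0.0206), where 12.0% of kept probes passed. That mean was -0.59 without mutant embryo 2 (adjusted p = 0.176) and -0.60 without the neural tube array of wild-type embryo 2 (adjusted p = 0.0566), and neither passed. In wild type its difference was -1.05 ± 0.20 and did not pass (adjusted p = 0.0504), where 2.31% of kept probes did. The probes lie at chr7:38882937-38882960 (brightest) and chr7:38885574-38885633 (second) on mm9.

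Cdkn1b, the Cip/Kip inhibitor p27, showed a like split. Its brightest probe (chr6:134875424-134875483) read 13.50 and 13.40 in mutant neural tube, against 13.31 and 13.67 in wild-type neural tube, and 13.19 and 12.90 in mutant paraxial tissue, against 13.11 and 13.34 in wild-type paraxial tissue. Its tissues overlapped in wild type and not in mutants, and neither genotype passed (0.41 ± 0.15 in mutants, adjusted p = 0.201; 0.26 ± 0.15 in wild type, adjusted p = 0.425). The second probe (chr6:134873606-134873665) read 10.17 and 10.45 in mutant neural tube, against 10.36 and 10.59 in wild-type neural tube, and 9.36 and 9.46 in mutant paraxial tissue, against 10.34 and 10.39 in wild-type paraxial tissue. Here mutant paraxial tissue lay below the 3 other groups, whose arrays read 10.17 to 10.59. In mutants this probe was higher in neural tube by 0.90 ± 0.15 (adjusted p = 0.0251; 5.55% of kept probes passed there), and over both genotypes by 0.50 ± 0.11 (adjusted p = 0.0280). In wild type the difference was 0.11 ± 0.15 (adjusted p = 0.760). Without mutant embryo 2 the differences were 0.81 in mutants (adjusted p = 0.295) and 0.46 over both genotypes (adjusted p = 0.211), and without the neural tube array of wild-type embryo 2 the mean over both was 0.45 (adjusted p = 0.0520).

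Both probes of Ccnd3 (brightest at chr17:47736579-47736638, second at chr17:47736267-47736326) failed the test in every comparison. The second read 14.52 and 14.10 in mutant neural tube, against 13.56 and 14.27 in wild-type neural tube, and 14.87 and 14.69 in mutant paraxial tissue, against 13.81 and 14.58 in wild-type paraxial tissue. In wild type, the arrays of embryo 1 lay below those of embryo 2 for both probes and in both tissues.

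**Figure D3:**
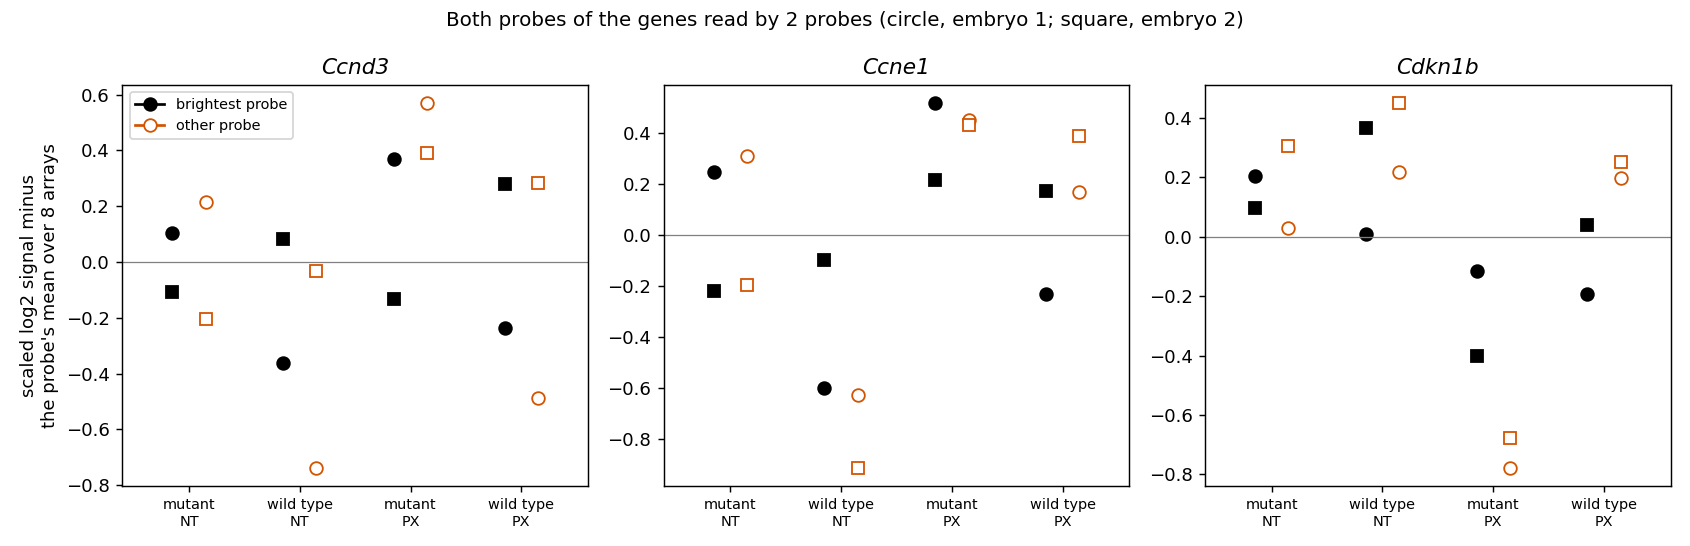
Both probes of Ccnd3, Ccne1 and Cdkn1b, as the scaled log2 signal of each array minus that probe's mean over the 8 arrays (circle, embryo 1; square, embryo 2; filled, brightest probe; open, second probe). The second probe of Cdkn1b is low in mutant paraxial tissue alone, and that of Ccne1 is low in wild-type neural tube.

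Between mutant and wild-type embryos, no member passed the test in either tissue. The count was 0 of 10 in neural tube and 0 of 10 in paraxial tissue, and in each 0.00% of all genes passed (limma, adjusted p under 0.05), although 1050 and 971 genes had an unadjusted p under 0.05. The mean over both tissues and the difference between the tissues also gave 0 of 10 members, and there again 0.00% of all genes passed, with 850 and 1495 genes at an unadjusted p under 0.05. The differences of the 8 members measured on every array were split in sign, with 6 higher and 2 lower in mutant neural tube (median 0.08, against -0.01 for all genes), and 5 higher and 3 lower in mutant paraxial tissue (median 0.07, against 0.03 for all genes).

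Their mutant minus wild-type differences ran from -0.04 to 0.49 in neural tube and from -0.37 to 0.40 in paraxial tissue. Their 95% intervals, which are not adjusted for the number of genes, reached 0.55 to 0.71 to either side. After adjustment over all genes no difference of any size passed between genotypes. Changes larger than these intervals could thus also have gone undetected with 2 embryos per genotype. Among the 8 members, the upper end of the estimates in neural tube was Ccnd2 (0.49 ± 0.25, adjusted p = 0.921). Both of its mutant arrays lay above both wild-type arrays there, and in paraxial tissue as well (0.19 ± 0.25, adjusted p = 0.996). Ccne1 followed with 0.36 ± 0.28 in neural tube and 0.40 ± 0.28 in paraxial tissue (adjusted p = 0.921 and 0.996), and its genotypes overlapped in neural tube but not in paraxial tissue. By its second probe Ccne1 differed by 0.83 ± 0.31 in neural tube (adjusted p = 0.918) and 0.16 ± 0.31 in paraxial tissue (adjusted p = 0.994).

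Ccnd1, Ccnd3, Ccna2, E2f1 and the brightest probe of Cdkn1b had mutant minus wild-type differences between -0.04 and 0.14 in neural tube. In paraxial tissue Ccnd1 stood at 0.31 ± 0.25 (adjusted p = 0.996), and the 4 others lay between -0.18 and 0.10. The second Cdkn1b probe was lower in mutant paraxial tissue by -0.95 ± 0.24 as a log2 difference, with an unadjusted p of 0.00557 that did not survive adjustment (limma, adjusted p = 0.994).

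For the 2 dim genes a genotype difference can be given only as a bound. Cdkn2c was at least 1.95-fold lower in mutant neural tube, where it was not well above background, than in wild-type neural tube, and did not pass (limma, adjusted p = 0.921). Since the gene entered the test only through wild-type neural tube, a lower level in mutant neural tube was built in. The bound is therefore no independent support for a genotype difference, and it carries no measure of error. In paraxial tissue neither genotype was well above background and no fold is given. Ccne2 was well above background on 1 of its 2 mutant neural tube arrays, and no fold is given for it either.

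The 8 members measured on every array whose groups did not overlap were counted against all genes. In neural tube 2 were higher on both mutant arrays, Ccnd2 and E2f2, and 0 lower, where 16.5% and 15.4% of all genes were. In paraxial tissue 2 were higher (Ccnd2 and Ccne1) and 2 lower (Ccna2 and E2f2), where 22.6% and 14.7% of all genes were. Between the tissues, 4 of the 8 were higher on both neural tube arrays and 0 lower in mutants (16.5% and 19.6% of all genes), and 3 and 0 in wild type (18.3% and 16.9%). For all 4 arrays of a tissue, 2 of the 8, E2f1 and E2f2, were higher in neural tube, against 4.45% of all genes, and none was lower (4.69%). On all 4 mutant arrays 1 member, Ccnd2, was higher (3.62% of all genes) and none was lower (2.02%).

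**Figure D4:**
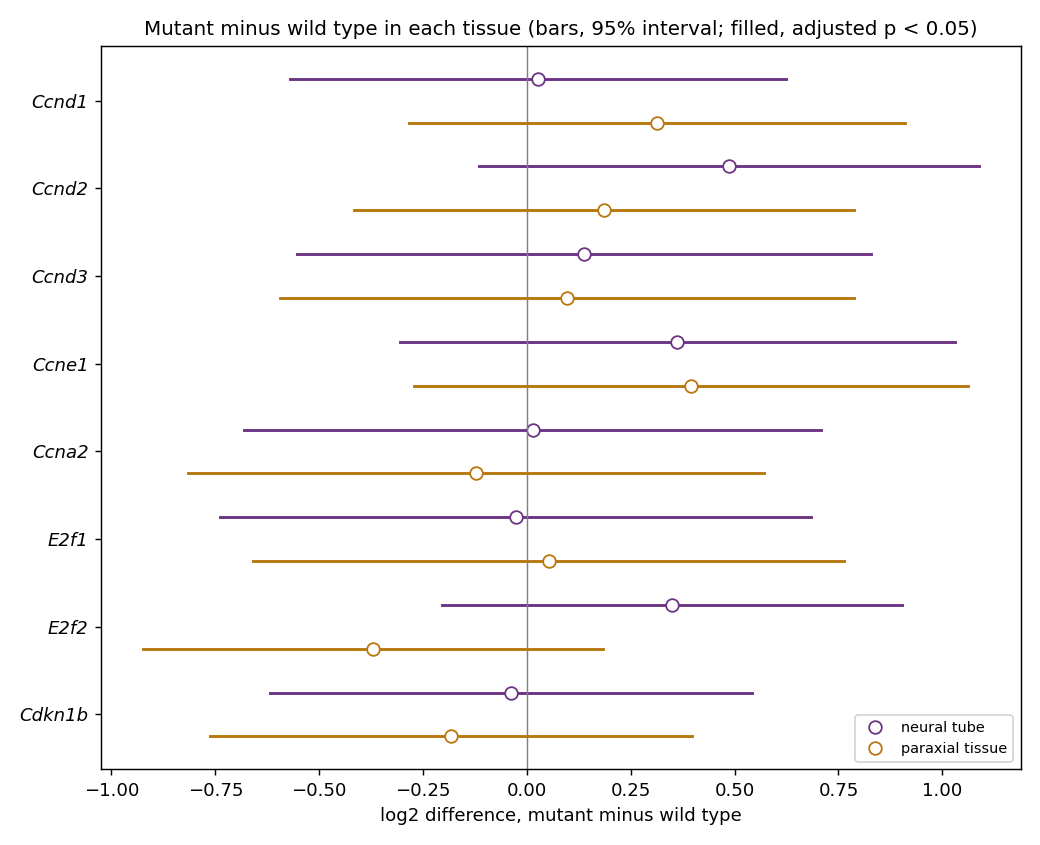
Log2 difference, mutant minus wild type, of the 8 genes well above background on every array, in neural tube and in paraxial tissue. Circles are limma estimates and bars their 95% intervals, and no circle is filled because no adjusted p was under 0.05. All intervals cross 0.

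E2f2 was the only member whose mutant arrays lay on opposite sides of wild type in the 2 tissues. Both mutant arrays were above both wild-type arrays in neural tube (0.35 ± 0.23, adjusted p = 0.921) and below both in paraxial tissue (-0.37 ± 0.23, adjusted p = 0.996). The difference between these differences was 0.72 ± 0.21, with an unadjusted p of 0.0108 and an adjusted p of 0.851 (limma). Of all genes, 0.605% showed this pattern in the same direction and 1.71% in either.

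Of 31 other genes of the G1/S network (CDKs, pocket proteins, other E2F and DP factors, inhibitors, ubiquitin ligase subunits and Myc genes), 27 were tested. The remaining ones, Cdk6, Ccnh, Cdkn2a and Cdkn2b, were near background throughout. Between the tissues 4 of the 27 passed over both genotypes, 2 higher and 2 lower in neural tube, where 11.9% of all genes passed. The retinoblastoma gene Rb1, whose protein holds E2F factors inactive, was higher in neural tube by 0.71 ± 0.10 (adjusted p = 0.00588), and Tfdp2, which encodes a dimer partner of E2F factors, by 0.94 ± 0.16 (adjusted p = 0.0117). Cdkn1a, the p21 inhibitor, was lower by -1.49 ± 0.16 as a log2 difference (adjusted p = 0.00341), and Myc, a transcription factor that drives G1 progression, by -1.66 ± 0.20 (adjusted p = 0.00428). Tfdp2 and Cdkn1a had 2 kept probes each, and only the brightest is given here. In mutants Tfdp2 (1.00 ± 0.22, limma, adjusted p = 0.0494) and Myc (-1.26 ± 0.28, adjusted p = 0.0496) passed narrowly. Rb1 (0.94 ± 0.14, adjusted p = 0.01585) and Cdkn1a (-1.42 ± 0.23, adjusted p = 0.0205) passed as well. Thus the same 4 of 27 passed in mutants in the same directions, where 5.84% of all genes passed. In wild type 2 of 27 did, Myc (-2.06 ± 0.28, adjusted p = 0.0196) and Cdkn1a (-1.56 ± 0.23, adjusted p = 0.0241), where 2.46% of all genes passed. Without mutant embryo 2 none of these calls held, and the means over both genotypes were 0.68 for Rb1 (adjusted p = 0.0956), 0.81 for Tfdp2 (adjusted p = 0.146), -1.56 for Cdkn1a (adjusted p = 0.0578) and -1.53 for Myc (adjusted p = 0.0706). Without the neural tube array of wild-type embryo 2 all 4 passed over both genotypes and in mutants, and neither Myc (adjusted p = 0.0622) nor Cdkn1a (adjusted p = 0.110) did in wild type. The median of the 27 was -0.02, the same as that of all genes.

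Rb1 read 10.87 and 11.02 in mutant neural tube, against 11.03 and 11.04 in wild-type neural tube, and 9.98 and 10.02 in mutant paraxial tissue, against 10.58 and 10.54 in wild-type paraxial tissue. It was lowest in mutant paraxial tissue, with a mutant minus wild-type difference of -0.56 ± 0.22 there that did not pass (adjusted p = 0.996). E2f2, Ccna2, both probes of Cdkn1b and Tfdp2, among others, also had their lowest mean there, so this order was not particular to Rb1. Myc had levels of 12.62 and 11.88 in mutant neural tube, against 10.19 and 11.29 in wild-type neural tube, and 13.63 and 13.39 in mutant paraxial tissue, against 12.26 and 13.35 in wild-type paraxial tissue. Its neural tube difference between genotypes was 1.51 ± 0.44 (adjusted p = 0.921).

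None of the 27 network genes passed between genotypes in either tissue. In mutant neural tube 20 were higher and 7 lower (median 0.26, against -0.01 for all genes), and in mutant paraxial tissue 21 were higher and 6 lower (median 0.16, against 0.03). Besides Myc, the smallest unadjusted p-values in neural tube belonged to E2f5 (0.87 ± 0.28) and Cdkn1a (0.83 ± 0.36), both with an adjusted p of 0.921. In paraxial tissue they belonged, besides Rb1, to Cdkn1a (0.69 ± 0.36) and to Cks1b (0.47 ± 0.24), a subunit that helps degrade p27, both with an adjusted p of 0.996.

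Genes used in DNA synthesis, most of which E2F factors are known to activate, had mostly positive differences, none of which passed. Of 16 such genes 14 were higher and 2 lower in mutant neural tube (median 0.23), and 14 were higher and 2 lower in mutant paraxial tissue (median 0.22). The smallest p-values were those of Uhrf1 (0.57 ± 0.28), Fen1 (0.50 ± 0.25) and Slbp (0.79 ± 0.42) in neural tube (adjusted p = 0.921) and of Fen1 (0.45 ± 0.25), Rrm2 (0.52 ± 0.37) and Cdc6 (0.61 ± 0.44) in paraxial tissue (adjusted p = 0.996). Uhrf1 maintains DNA methylation behind the fork, Fen1 trims Okazaki fragments, Slbp binds histone mRNA, Rrm2 is a subunit of ribonucleotide reductase and Cdc6 loads the MCM helicase. Of 12 mitosis genes, 11 were higher in mutant neural tube (median 0.33) and 10 in mutant paraxial tissue (median 0.09), and again none passed. They were led in neural tube by the proliferation marker Mki67 (0.66 ± 0.36), the kinase Plk1 (0.53 ± 0.31) and the checkpoint kinase Bub1 (0.41 ± 0.24), all at an adjusted p of 0.921. In paraxial tissue Cdk1 (0.53 ± 0.24), Plk1 (0.56 ± 0.31) and the kinase Aurka (0.38 ± 0.28) led, all at an adjusted p of 0.996. Between the tissues no gene of either list passed over both genotypes.

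On single arrays, mutant embryo 1 had the highest mean of each tissue in the network, S-phase and mitosis lists. The mean of the S-phase genes relative to their own average over the 8 arrays was 0.36 and -0.06 in mutant neural tube, against -0.25 and 0.05 in wild-type neural tube, and 0.20 and -0.02 in mutant paraxial tissue, against -0.26 and -0.02 in wild-type paraxial tissue. In each tissue embryo 1 was at the top in mutants and at the bottom in wild type, while embryo 2 of both genotypes lay close to 0. The 8 members measured on every array had means of 0.31 and 0.05 in mutant neural tube, against -0.09 and 0.13 in wild-type neural tube, and 0.06 and -0.21 in mutant paraxial tissue, against -0.18 and -0.06 in wild-type paraxial tissue.

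**Figure D5:**
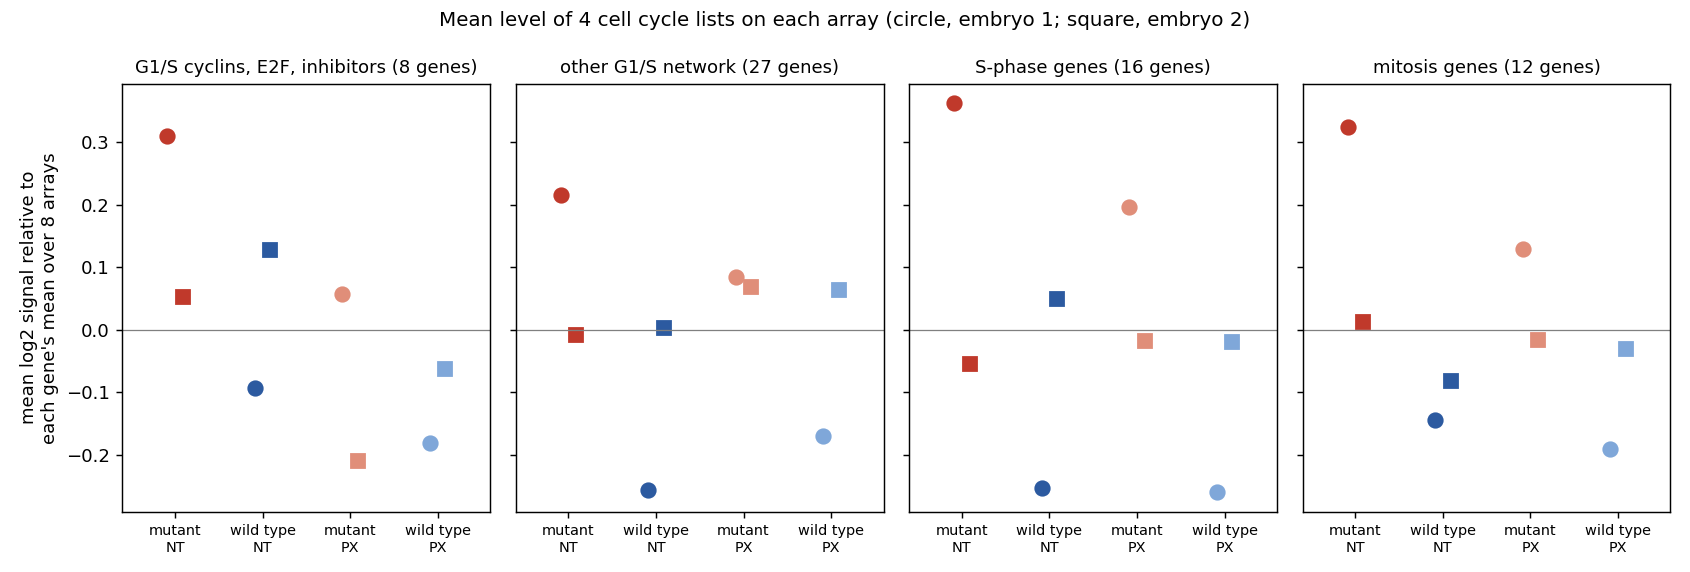
Mean log2 signal, relative to each gene's mean over the 8 arrays, of the 8 G1/S genes measured on every array, of 27 other network genes, of 16 S-phase genes and of 12 mitosis genes (circle, embryo 1; square, embryo 2). In the S-phase and mitosis panels the mutant embryo 1 arrays are highest in each tissue (0.36 and 0.20 for S-phase genes) and the wild-type embryo 1 arrays lowest (-0.25 and -0.26).

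Markers of other cells and of stress also differed in mean between mutant and wild-type arrays, and their part in the values above was not tested. The mean of 13 p53 targets, Cdkn1a among them, was 0.21 and 0.06 in mutant neural tube, against -0.53 and -0.37 in wild-type neural tube, and 0.92 and 0.46 in mutant paraxial tissue, against -0.44 and -0.30 in wild-type paraxial tissue. That of 7 measured surface ectoderm and epithelial markers was 0.12 and -0.13 in mutant neural tube, against -1.28 and -0.48 in wild-type neural tube, and 1.57 and 1.06 in mutant paraxial tissue, against -0.99 and 0.12 in wild-type paraxial tissue. No array had the epithelial cadherin Cdh1 well above background. Neuronal markers had means of -0.22 and 0.86 in mutant neural tube, against 0.80 and 0.82 in wild-type neural tube, and -1.07 and -0.87 in mutant paraxial tissue, against 0.51 and -0.82 in wild-type paraxial tissue. Wild-type paraxial tissue of embryo 1 thus stood apart from the other 3 paraxial arrays in neuronal markers. Endothelial and erythroid markers were highest in mutant paraxial tissue (means 0.76 and 0.74 for 6 endothelial genes, 0.71 and 0.59 for 5 erythroid genes), and no gene of these lists passed between genotypes.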

How the data were processed

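RNA of laser-captured neural tube and paraxial tissue was isolated by PicoPure kit, and Cy5 was coupled to the cDNA with the Kreatech ULS kit, per the labels' protocols. The deposited values are linear intensities of the red channel, extracted with Agilent Feature Extraction 11.0.1.1 (per the submitters' processing notes), with spatial and multiplicative detrending on and an mm9 annotation, per the file headers. A table of values for all arrays by the authors holds the same intensities, within 0.497%, and was used as an alternative.

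From these, 3671 control spots of 62976 and spots marked as outliers were left out, the spots of a probe were averaged, and log2 signals were scaled to a common 75th percentile (3164 to 6394 before scaling). No spot was saturated. A probe was kept when both arrays of some group had it well above background (42754). They were named through RefSeq accessions (26045 of 55664 probes) or symbols (3200), and otherwise kept the file's name (26419). The brightest probe stood for a gene. The 4 group means were fitted with limma 3.58.1 in R 4.3.3 (files read with data.table, version 1.17.8), with embryos as random blocks (correlation 0.603 by duplicateCorrelation), eBayes and Benjamini-Hochberg adjustment at 0.05 over 28940 genes. Both tissues of an embryo deviated together (r = 0.607 in mutants, 0.562 in wild type), and the labels give the shared embryo. Mutant and wild-type arrays with the same replicate number also deviated together, though less (r = 0.291 in neural tube and 0.291 in paraxial tissue). The replicate number was not taken to pair embryos of different genotype, and entered only the alternative by slide row. What same-numbered arrays share was not tested.

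A fold is "at least" where no array of one group had the gene well above background. The bound is the brighter group's mean over a floor, which on each array is the lowest signal among measurable probes or the gene's value if that is higher. The number of arrays limits the precision, and p-values rest on 2 embryos per genotype. The members, the gene lists and the tests were chosen with earlier results of these data known. By the rule for naming genes, all members were named, with Gmnn, up to 6 genes per list that passed (or the 3 with the smallest p) and the 5 profiles most like each of the 2 members of widest range; these profiles are not reported here, since those members (Cdkn2c and Ccne2) were well above background on only 2 and 3 of the 8 arrays. Xist and the genes given as examples of a list were named outside the rule, after their values were seen. The alternatives tried were cyclic loess, quantile and median scaling, normexp correction (offset 50), the value table, no filter, the mean of all probes, trended robust eBayes, other blocks and leaving out each array or embryo. For network genes and second probes, the fits that leave out arrays were added after the data had been seen. The code was tested on simulated arrays. Exons and untranslated regions are not given, since no mm9 annotation was used here.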

Additional observations from a re-analysis of the deposited data

Results flagged for a closer look

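E2f2 drew attention because its mutant arrays lay on opposite sides of wild type in the 2 tissues. The mutant minus wild-type difference was 0.35 in neural tube and -0.37 in paraxial tissue, so that the difference between the tissues was 0.72 ± 0.21 (log2 ± SE). Tested as an interaction term over all genes, it had an adjusted p of 0.851 (limma), and it ran from 0.59 to 0.85 under the alternatives without being called in any.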

How the results depend on the processing

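No member was called between mutant and wild type under any of 22 alternatives in neural tube, in paraxial tissue or on average, nor in the difference between tissues under 23; over all genes those settings called at most 5, 29, 0 and 116. The tissue counts moved; over all 10 members they include Cdkn2c and Ccne2, which were tested only through the group where they were measured. In wild type, where 1 member (Cdkn2c) was called, none was with normexp correction, without the replicate block or with the embryo as a fixed replicate block (0 each), and leaving out arrays or embryos gave 0 to 2. It was 0 without either array of wild-type embryo 2 or without any whole embryo, and 2 without the neural tube array of wild-type embryo 1 (E2f1 added). In mutants, where 1 (E2f2) was called, quantile scaling and the mean of all probes gave 2 (Cdkn2c or Cdkn1b added). No filter, no replicate block, the fixed replicate block and the replicate block by slide row gave 0. Leaving out arrays or embryos gave 0 to 2, with 0 without any mutant array or any whole embryo and 2 without either wild-type paraxial array. Over both genotypes, where 3 were called, the mean of all probes gave 5 (Ccne1 and Cdkn1b added), and no replicate block or the fixed replicate block left 1 (Cdkn2c). Leaving out arrays or embryos gave 0 to 4, with 0 without wild-type embryo 2, and 1 without mutant embryo 2 (Ccne2), wild-type embryo 1, mutant embryo 1, or 1 of 3 mutant arrays (neural tube 1, paraxial 1 and paraxial 2), where it was Cdkn2c. The genes called over all ran from 0 to 2673 in wild type (713), 0 to 3178 in mutants (1689) and 475 to 6426 over both (3457). Of 1580 values of members under the alternatives, 47 lost and 11 gained a call, none of the called ones changed sign, and 117 uncalled ones did. Left-out arrays leave lone samples that are assumed to vary like the other groups, fits without a whole embryo used the correlation of all arrays, and the causes of these changes were not tested.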
